A study of Homo sapiens with 6 samples.

Results

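Collagens are the structural proteins of the extracellular matrix, and the deposited table of ARPE-19 cells holds 44 collagen genes among 19514 distinct gene names. The members are all names of the form COL, a number, A and a number, with the counts of rows sharing a name added together. They were divided by family into 11 fibrillar genes (types 1, 2, 3, 5, 11, 24 and 27), 6 basement membrane genes (type 4) and 27 other collagens. ARPE-19 is an established human retinal pigment epithelial line, labelled wild type (WT). Each group had 3 libraries: one was exposed for 24 h to 40 µM trans,trans-2,4-decadienal (tt-DDE, a reactive unsaturated aldehyde from the oxidation of linoleic acid), the other to the same volume of its DMSO vehicle. The comparison asks how the aldehyde changed the transcripts of this line. The labels do not say whether the libraries of a group came from separate cultures, so p-values measure only the spread between these libraries, which may be technical.

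A collagen molecule is a rope of 3 chains, each built of repeats that start with glycine. Fibrillar collagens trim their ends outside the cell and pack into cross-striped fibrils. Type IV chains keep their ends and link into the sheet-like network of basement membranes. Other collagens coat fibrils, form filaments or hexagonal lattices, or span the plasma membrane. The pigment epithelium of the eye rests on Bruch's membrane, whose outermost layers are basement membranes around a core with fibrillar collagen.

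The type IV genes sit head to head in pairs that are transcribed away from a shared stretch of DNA. The stretches between the partners are shown because both genes of each pair fell after tt-DDE, as described below, and the stretch before COL11A1 is shown because that gene had the largest fall among the collagens tested. Capitals mark the CCAAT box (CCAAT or its complement ATTGG) and the GC box (GGGCGG or its complement CCGCCC), searched on both strands. The sequences are RefSeq's, build GRCh38.p14, 5′ to 3′, on the plus strand for the type IV stretches and on the minus strand for COL11A1, and exclude the gene spans of the deposited table.
COL4A1-COL4A2, chr13:110307158-110307283: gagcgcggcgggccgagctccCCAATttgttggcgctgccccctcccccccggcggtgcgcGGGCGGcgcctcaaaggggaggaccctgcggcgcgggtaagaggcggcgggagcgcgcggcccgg
COL4A4-COL4A3, chr2:227164483-227164588: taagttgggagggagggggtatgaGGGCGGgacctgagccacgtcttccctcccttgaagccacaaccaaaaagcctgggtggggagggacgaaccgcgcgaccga
COL4A6-COL4A5, chrX:108439588-108439837: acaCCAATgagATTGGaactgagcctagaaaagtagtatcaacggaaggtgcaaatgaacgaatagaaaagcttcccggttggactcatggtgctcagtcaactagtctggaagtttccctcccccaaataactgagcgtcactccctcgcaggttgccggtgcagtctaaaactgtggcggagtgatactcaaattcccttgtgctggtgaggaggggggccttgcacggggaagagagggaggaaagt
COL11A1, chr1:103108581-103108772: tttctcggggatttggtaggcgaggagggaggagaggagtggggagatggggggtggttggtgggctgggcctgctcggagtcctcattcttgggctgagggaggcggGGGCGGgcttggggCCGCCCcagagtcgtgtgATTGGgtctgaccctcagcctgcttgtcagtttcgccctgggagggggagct

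By the deposited gene spans, 126 bases separate COL4A1 from COL4A2, 106 separate COL4A4 from COL4A3 and 344 separate COL4A6 from COL4A5, of which the 250 nearest COL4A5 are printed. The COL4A1-COL4A2 stretch was 80.2% G and C and held 1 CCAAT box and 1 GC box. The COL4A4-COL4A3 stretch held a GC box and no CCAAT box, and the part printed for COL4A6-COL4A5 held 2 CCAAT boxes and no GC box. Neither motif was thus present in all 3 of the printed type IV stretches. Of the promoter windows described next, those of COL4A1, COL4A2, COL4A3 and COL4A6 held a GC box, for COL4A6 outside the printed part. Those of COL4A4 and COL4A5 held none. Each pair thus had a GC box in the window of at least 1 gene. In RefSeq promoter windows of 300 bases (250 before the start and 50 after), found for 32 of the 44 collagens, a CCAAT box stood in 31.8% of the 44 windows, against 34.6% of all 35116 windows, and a GC box in 54.5% against 45%. The core of the heat shock element (GAANNTTC) was in 11.4% of the collagen windows against 6.77% of all. The ATF4 element (TGATGNAA) was in 2.27% against 3.62%. The endoplasmic reticulum stress element (ERSE), which contains a CCAAT box, was in 0 collagen windows and in 0.0769% of all. The windows of paired type IV genes overlap, by 226 bases for COL4A1 and COL4A2, 82 for COL4A3 and COL4A4, and 121 for COL4A5 and COL4A6. A site in such an overlap counts in both windows. These matches describe letters in a window, not binding.

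Collagen transcripts as a whole were less abundant after tt-DDE. Collagen counts made up 0.284%, 0.287% and 0.283% of all counts in DMSO libraries 1 to 3, and 0.0945%, 0.0905% and 0.0928% in the tt-DDE libraries. FPKM, a level per gene length and library total, lets genes be compared only as far as the deposited lengths hold. These lengths were 15595 bases for COL4A1 and 6446 for COL4A2, and gene ranks, class shares and levels of chain ratios depend on them. In FPKM the collagens summed to 346 ± 3.26 in DMSO and 116 ± 2.26 after tt-DDE (SD, n = 3 each). The groups did not overlap in either measure. Because these are bulk samples, fewer cells with a transcript and less of it in each cell cannot be told apart.

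Summed FPKM was lower after tt-DDE in each class, and the classes shifted against each other. The other collagens summed to 221 ± 2.34 in DMSO and 63.5 ± 1.81 after tt-DDE, basement membrane collagens to 88.6 ± 1.38 and 38.2 ± 0.601, and fibrillar collagens to 36.8 ± 0.548 and 14.5 ± 0.791 (SD, n = 3). As a share of the collagen FPKM sum, basement membrane genes went from 25.6% ± 0.358 to 32.9% ± 0.955, fibrillar genes from 10.6% ± 0.0925 to 12.5% ± 0.489 and the other collagens from 63.8% ± 0.268 to 54.6% ± 0.51. The libraries of the groups were apart in all 3 shares, which were given no test.

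**Figure D1:**
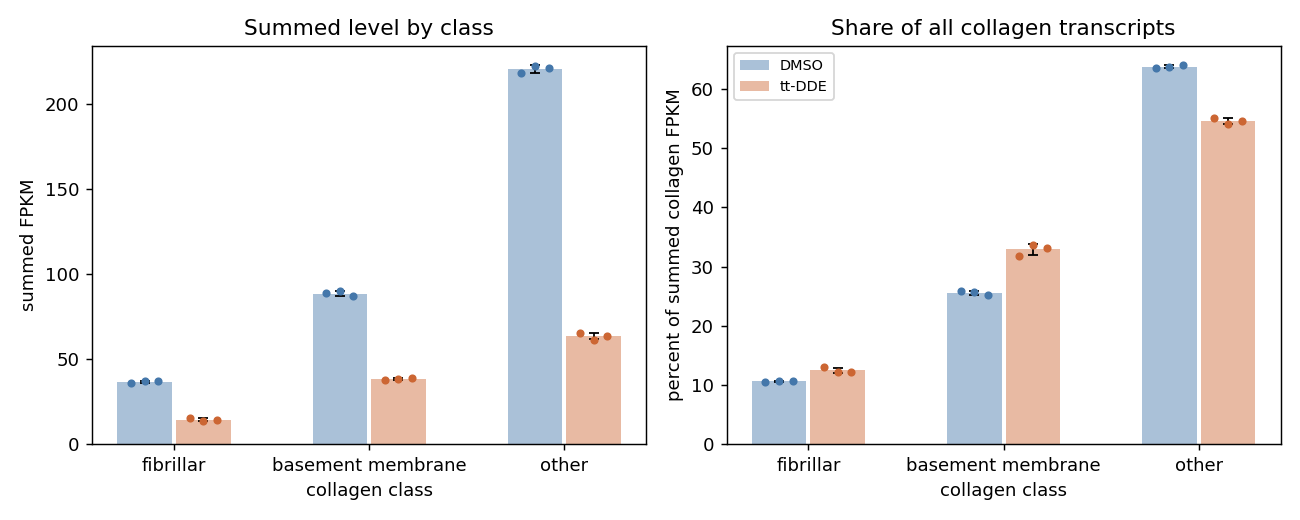
Summed FPKM (left) and percent of the summed collagen FPKM (right) for fibrillar, basement membrane and other collagens. Bars are means of 3 libraries, error bars 1 SD and points single libraries. The sums are lower after tt-DDE in each class, while the basement membrane share is 25.6% in DMSO and 32.9% after tt-DDE.

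A few genes made up most of the collagen message. COL8A1 held 37.7% ± 0.675 of the collagen FPKM sum in DMSO, COL12A1 19.3% ± 0.486, COL4A2 15.7% ± 0.349 and COL11A1 8.84% ± 0.0404 (SD, n = 3), together 81.5%. After tt-DDE COL8A1 was still first with 26.5% ± 0.486 and COL4A2 came before COL12A1, at 19.1% ± 0.976 and 10.8% ± 0.658. COL1A1 was eighth then, with 4.06% ± 0.231. Levels of neighbours in this order can lie close: COL4A3 and COL4A4 were at 3.23 ± 0.0933 and 3.23 ± 0.277 FPKM in DMSO, which do not differ beyond their spread.

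**Figure D2:**
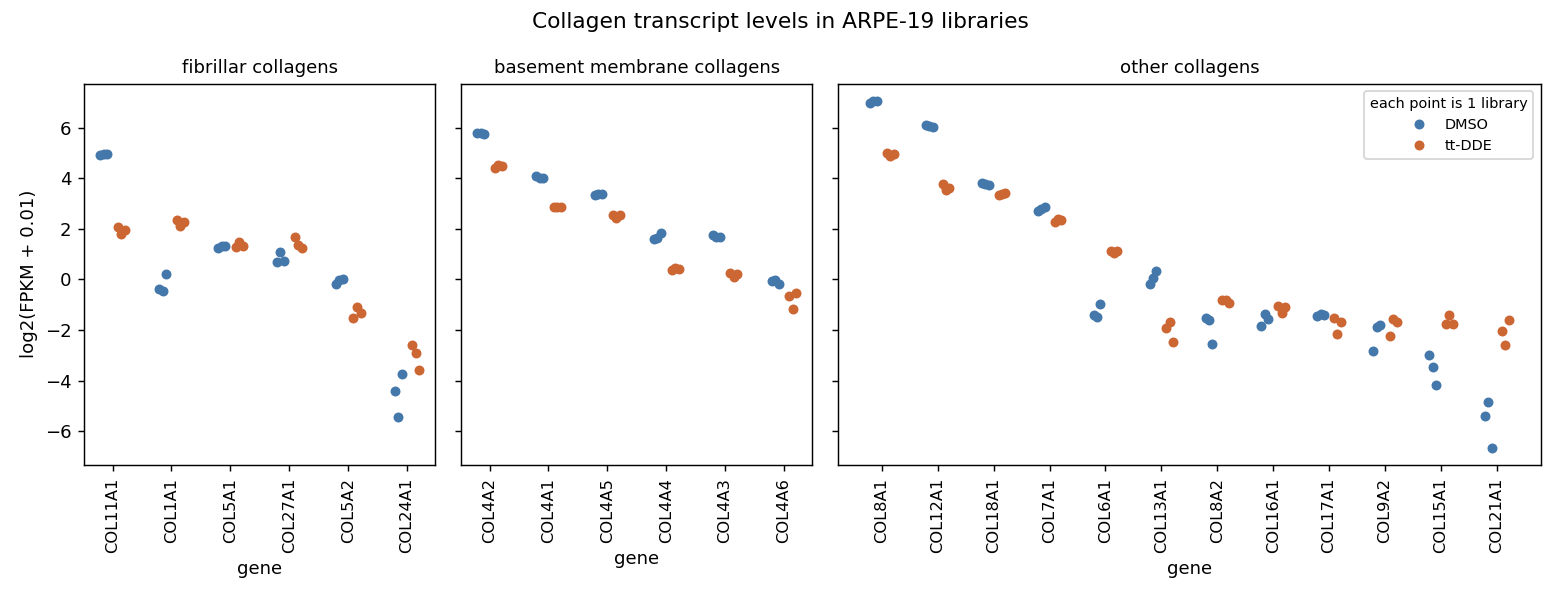
Level of the 24 collagen genes tested as log2(FPKM + 0.01), one point per library, by class and in order of mean FPKM. Basement membrane genes are lower after tt-DDE throughout, while fibrillar genes move both ways: COL11A1 is near 30.6 FPKM in DMSO and 3.83 after tt-DDE, COL1A1 near 0.875 and 4.72.

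Of the 44 genes, 24 passed the filter on low counts and were tested, 16 had counts too few to pass, and 4 (COL14A1, COL23A1, COL6A5 and COL9A1) had none. In the test, 9 collagens were higher after tt-DDE, 13 were lower and 2 were not called (quasi-likelihood test of edgeR, Benjamini-Hochberg adjusted p under 0.05), so 22 were called in all. Over all 12531 genes tested, 41.7% were called higher and 41.6% lower, 83.3% in all. At least 2-fold, 6 collagens were higher and 9 lower, where 16.1% and 16.8% of all genes were. The response of these cells was broad, with the first principal component of all genes holding 94% of the variance. The number of collagens called is therefore read against a background in which most genes changed.

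The split by class was uneven. All 6 basement membrane genes, which lie in 3 head-to-head pairs, passed the filter and all 6 fell, where 41.6% of all genes tested were called lower. Their median log2 fold change was -1.14, with a range from -1.42 to -0.59. Of 6 fibrillar genes tested 4 rose and 2 fell, with a median of 0.43 and a range of -2.90 to 2.51. Over the alternatives 3 or 4 fibrillar genes rose, and the median was 0.19 when a mean of at least 1 CPM was required, which leaves out COL24A1. Of 12 other collagens tested 5 rose, 5 fell and 2 were not called, near the 41.7% and 41.6% of all genes called higher and lower. Their median of 0.04 changed sign in some settings, as with library size alone (-0.048). The median over all genes tested was 0.00134. The scaling between libraries holds this median near 0, and with library size alone it was -0.0906. In 5 of the 24 genes all libraries were over the filter's count cutoff in 1 group alone. These were COL13A1 in DMSO, and COL15A1, COL21A1, COL24A1 and COL9A2 in tt-DDE. Of them, COL21A1 and COL24A1 had no DMSO library over the cutoff. The medians of the fibrillar and other classes thus depend on which genes could pass, and no difference between classes was tested.

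**Figure D3:**
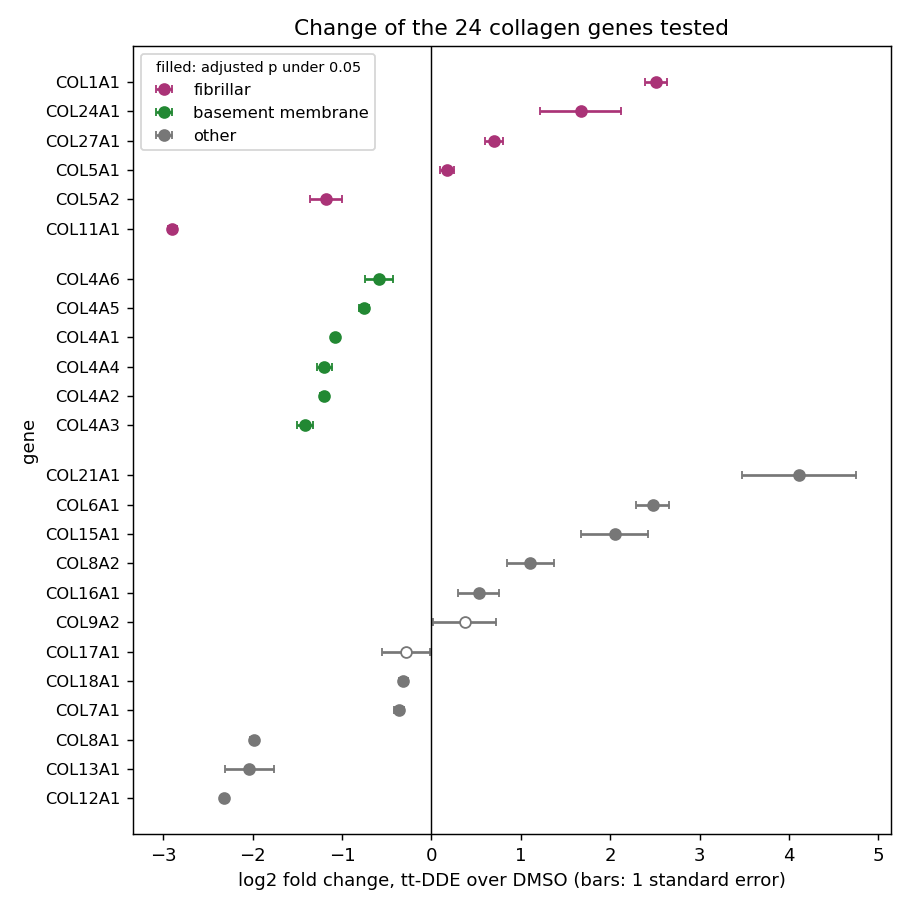
Log2 fold change of tt-DDE over DMSO with 1 standard error for the 24 collagen genes tested, ordered within each class; filled points passed an adjusted p of 0.05. The 6 basement membrane genes lie between -1.42 and -0.59, whereas fibrillar and other collagens lie on both sides of 0.

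COL4A1 and COL4A2 encode the chains of the most widespread basement membrane collagen, in which they combine in 1 trimer. COL4A2 had 4979, 5719 and 5486 counts in the DMSO libraries and 2349, 2403 and 2253 after tt-DDE. Its partner COL4A1 had 3715, 4035 and 4058 counts in DMSO and 1963, 1875 and 1763 after tt-DDE. Each tt-DDE library lay below all DMSO libraries for both genes, with log2 fold changes of -1.21 (SE 0.0396) for COL4A2 and -1.08 (SE 0.0403) for COL4A1 (edgeR adjusted p = 8.99e-30 and 1.52e-27). The FPKM ratio of COL4A1 to COL4A2 was 0.292 to 0.308 in DMSO and 0.323 to 0.345 after tt-DDE. The groups did not overlap in this ratio, which had no test, but it moved far less than either gene.

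COL4A3 and COL4A4 encode chains of the network that also contains α5(IV), best known from the kidney glomerulus. COL4A3 had 461, 500 and 494 counts in DMSO and 196, 172 and 177 after tt-DDE. COL4A4 had 536, 613 and 709 in DMSO and 275, 280 and 253 after tt-DDE. The log2 fold changes were -1.42 (SE 0.0893) for COL4A3, the largest fall of the class, and -1.20 (SE 0.0796) for COL4A4 (edgeR adjusted p = 4.56e-19 and 2.91e-18). Their FPKM ratio was 0.887 to 1.09 in DMSO and 0.782 to 0.908 after tt-DDE, so the groups overlapped.

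The X-linked pair fell less. COL4A5, whose product joins both α3(IV)- and α6(IV)-containing molecules, had 1042, 1206 and 1205 counts in DMSO and 731, 645 and 662 after tt-DDE, a log2 fold change of -0.76 (SE 0.0568, edgeR adjusted p = 1.73e-16). COL4A6 was the least abundant of the class, with 360 counts over the DMSO libraries and 239 over the tt-DDE libraries, and changed by -0.59 on the log2 scale (SE 0.158, edgeR adjusted p = 0.000784). Its tt-DDE libraries, at 3.78 to 5.98 CPM (counts scaled to library size with TMM factors), lay below the DMSO libraries at 7.09 to 7.93 CPM. The FPKM ratio of COL4A5 to COL4A6 overlapped between groups, at 10.8 to 11.9 and 8.55 to 12.5. Whether the X-linked pair differed in fold change from the other pairs was not tested.

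Fibrillar collagens changed their leading gene. COL11A1, which encodes the α1 chain of the thin-fibril type XI collagen of cartilage and vitreous, had 3504, 3983 and 4013 counts in DMSO and 579, 462 and 496 after tt-DDE. It fell by 2.90 on the log2 scale (SE 0.0516, edgeR adjusted p = 2.72e-40), to 32.3 ± 2.91 CPM from 242 ± 1.29 CPM (SD, n = 3). Its share of the fibrillar FPKM sum was 83.2% ± 0.732 in DMSO and 26.5% ± 1.46 after tt-DDE.

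COL1A1, the main chain of type I collagen, rose over the same comparison. It had 64, 68 and 109 counts in DMSO and 511, 422 and 443 after tt-DDE, a log2 fold change of 2.51 (SE 0.12, edgeR adjusted p = 1.39e-23). DMSO library 3 was the highest of its group, and remained far below each tt-DDE library. COL1A1 made up 2.38% ± 0.619 of the fibrillar FPKM sum in DMSO and 32.6% ± 1.37 after tt-DDE, more than COL11A1 in that group. COL1A2, which supplies the second chain type of the usual type I molecule, had 0, 2 and 0 counts in DMSO and 0 in each tt-DDE library. It was thus at or under the counting floor of 3 counts, 0.175 to 0.212 CPM, in each library, and no change of it was detectable at this depth.

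**Figure D4:**
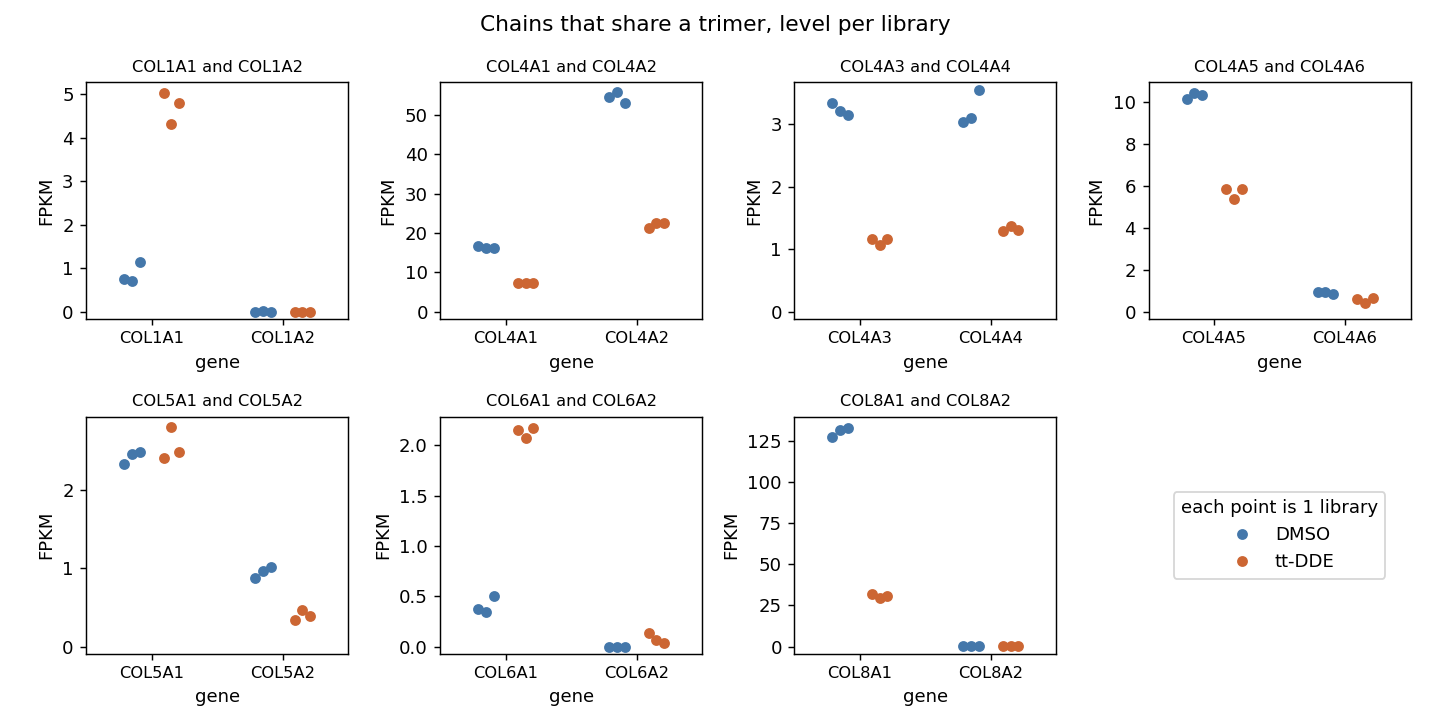
FPKM of chains that can share a trimer, one point per library and linear axes that differ between panels. COL4A1 and COL4A2, and COL4A3 and COL4A4, are lower together after tt-DDE, whereas COL1A1 is at 4.32 to 5.02 FPKM with COL1A2 at 0 counts, and COL5A2 is lower while COL5A1 is at 2.41 to 2.80 FPKM.

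The type V genes, whose product helps set the diameter of type I fibrils, differed in direction. COL5A2 had 87, 107 and 113 counts in DMSO and 40, 53 and 42 after tt-DDE, a log2 fold change of -1.18 (SE 0.179, edgeR adjusted p = 8.89e-08). COL5A1 was at 25.3 ± 0.797 CPM in DMSO and 28.6 ± 2.43 CPM after tt-DDE (SD, n = 3), a rise of 0.17 on the log2 scale (SE 0.0784, edgeR adjusted p = 0.0397). That small rise kept its direction but missed the threshold in 7 of 13 alternative settings, among them DESeq2 (0.18, adjusted p = 0.0678) and library size alone (0.08 on the log2 scale, adjusted p = 0.337). The FPKM ratio of COL5A1 to COL5A2 was 2.46 to 2.64 in DMSO and 6.07 to 7.20 after tt-DDE. COL5A3 had 1 count in all.

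Types XXIV and XXVII are fibrillar collagens with interrupted helices, described mainly in bone and cartilage. COL27A1 rose from 15.7 ± 2.52 to 25.4 ± 3.92 CPM (SD, n = 3), by 0.70 on the log2 scale (SE 0.102, edgeR adjusted p = 4.27e-08), and its groups did not overlap. COL24A1 had 5, 2 and 10 counts in DMSO and 25, 19 and 11 after tt-DDE. Its fitted change was 1.67 on the log2 scale (SE 0.454, edgeR adjusted p = 0.000876), and moved to 2.30 without DMSO library 3 and to 1.24 without DMSO library 2. COL2A1, the chain of cartilage type II collagen, had 0 counts in DMSO and 9, 5 and 5 after tt-DDE. With the DMSO group set at an assumed floor of 3 counts summed over its libraries, the rise would be 6.34-fold. The lower 95% counting limit of the ratio was 4.67. COL2A1 did not pass the filter. COL3A1 (22 and 17 counts) and COL11A2 (4 and 6 counts, summed over 7 rows of which 6 are alternate copies) were too low to be tested.

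Among the other collagens, the lattice-forming type VIII gene COL8A1 and the fibril-coating COL12A1 had the most counts. COL8A1, a component of Bruch's membrane and of the corneal Descemet's membrane, had 10031, 11670 and 11882 counts in DMSO and 3051, 2721 and 2671 after tt-DDE. COL12A1, which binds to the surface of type I fibrils, had 12649, 14082 and 13748 counts in DMSO and 3070, 2526 and 2528 after tt-DDE. Both fell in each tt-DDE library, by 1.99 (SE 0.0376) for COL8A1 and by 2.32 (SE 0.0414) for COL12A1 on the log2 scale (edgeR adjusted p = 2.87e-39 and 3.24e-40).

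COL8A2, the partner chain of type VIII, moved the opposite way. It had 26, 27 and 14 counts in DMSO and 52, 50 and 43 after tt-DDE, a log2 fold change of 1.11 (SE 0.261, edgeR adjusted p = 0.000164). DMSO library 3 was its lowest. The FPKM ratio of COL8A1 to COL8A2 was 373, 418 and 821 in DMSO libraries 1 to 3 and 52.7 to 60.1 after tt-DDE, so COL8A1 remained the far more abundant chain. COL10A1, the other short-chain collagen, had 15 and 14 counts.

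Type VI collagen forms beaded filaments from 3 different chains. COL6A1 had 22, 23 and 34 counts in DMSO and 155, 143 and 142 after tt-DDE, a log2 fold change of 2.47 (SE 0.184, edgeR adjusted p = 1.31e-16). COL6A2, its neighbour on chromosome 21, had 0 counts in DMSO and 11, 5 and 3 after tt-DDE, and did not pass the filter. With the DMSO group set at the assumed floor of 3 counts summed over its libraries, the rise of COL6A2 would be 6.34-fold (lower 95% counting limit 4.67). COL6A3, the longest chain, had 10 counts in DMSO and 4 after tt-DDE, a ratio of 0.4 with a 95% counting interval of 0.0917 to 1.39. COL6A6 had 24 and 11 counts. The chains of type VI were thus present at unequal levels, with COL6A1 at 2.13 ± 0.0552 FPKM and COL6A3 at 0.00723 ± 0.00628 FPKM after tt-DDE (SD, n = 3).

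The multiplexins, collagens of basement membrane zones with a trimmed-off anti-angiogenic end, went apart. COL18A1, the source of endostatin, had 1346, 1483 and 1454 counts in DMSO and 1155, 1148 and 1130 after tt-DDE, a log2 fold change of -0.32 (SE 0.0505, edgeR adjusted p = 2.37e-07). In GENCODE 29 it shares 1401 exonic bases with SLC19A1 on the other strand, whose counts were 1636 in DMSO and 470 after tt-DDE, and the sources used here do not say whether counting used strand. COL15A1 had 9, 7 and 4 counts in DMSO and 27, 33 and 24 after tt-DDE, a log2 fold change of 2.05 (SE 0.378, edgeR adjusted p = 4.03e-06).

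COL7A1, which forms the anchoring fibrils below epithelia, had 878, 1067 and 1138 counts in DMSO and 798, 823 and 770 after tt-DDE. Scaled to library size its tt-DDE libraries, at 48.0 to 51.9 CPM, lay below the DMSO libraries, at 60.3 to 68.3 CPM, and it fell by 0.36 on the log2 scale (SE 0.0584, edgeR adjusted p = 3.1e-07). The membrane-spanning COL13A1 had 43, 57 and 70 counts in DMSO and 15, 17 and 9 after tt-DDE, a log2 fold change of -2.04 (SE 0.276, edgeR adjusted p = 6.87e-09). COL17A1, a membrane-spanning collagen of hemidesmosomes, was measured at 1.99 ± 0.0765 CPM in DMSO and 1.64 ± 0.341 CPM with tt-DDE (SD, n = 3), which did not pass (log2 fold change -0.28, edgeR adjusted p = 0.329). COL25A1, also membrane-spanning, had 7 and 9 counts.

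Fibril-associated collagens other than COL12A1 were scarce. COL21A1 had 1, 2 and 0 counts in DMSO and 20, 13 and 25 after tt-DDE, a ratio of 19.4 with a 95% counting interval of 6.3 to 96.6. The fitted change of COL21A1 on the log2 scale was 4.12 (SE 0.636, edgeR adjusted p = 1.29e-07), and was 4.94 without DMSO library 2 and 3.54 without DMSO library 3. COL16A1 was at 2.05 ± 0.331 CPM in DMSO and 2.96 ± 0.282 CPM after tt-DDE (SD, n = 3). Its rise of 0.53 on the log2 scale (SE 0.233, edgeR adjusted p = 0.035) kept its direction but missed the threshold in 7 of 13 alternative settings, such as DESeq2 (0.54, adjusted p = 0.0784). COL9A2 did not pass (log2 fold change 0.37, edgeR adjusted p = 0.323). COL20A1 had 5 and 31 counts and was not tested. COL9A3 (2 and 4), COL19A1 (2 and 0) and COL22A1 (0 and 1) were at or near the floor. The remaining genes, COL26A1 and COL28A1, had 1 and 18 counts in all libraries together.

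Without the filter on low counts, 3 of the 16 collagens left out would have been called: COL2A1 (edgeR adjusted p = 0.000218), COL6A2 (adjusted p = 0.000221) and COL20A1 (adjusted p = 0.00114), each higher in each tt-DDE library than in any DMSO library. The libraries of the groups were apart for 22 of the 24 collagens tested, 9 with tt-DDE above and 13 below, where 83.9% of all genes tested had groups apart.

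Among genes listed for making a collagen molecule inside the cell more rose than fell, and among genes for finishing it outside most of those tested fell. These counts stand against the 41.7% and 41.6% of all genes called higher and lower. Of 26 genes listed for folding, modifying and exporting procollagen, all tested, 16 rose, 9 fell and 1 was not called. The median log2 fold change was 0.58. The list is broad. It also holds SPARC, CREB3L1, a transcription factor that fell (-1.84), and TANGO2, which rose (1.98) and for which no part in export is claimed here. SERPINH1, the collagen-specific chaperone HSP47, rose from 161 ± 4.02 to 577 ± 28.9 CPM, and MIA3, which helps load procollagen into transport carriers, from 90.7 ± 1.6 to 375 ± 8.08 CPM (SD, n = 3), with log2 fold changes of 1.84 and 2.05. P4HB, a subunit of prolyl 4-hydroxylase and a disulfide isomerase, rose by 1.40 on the same scale. SPARC, a collagen-binding matrix protein, COLGALT1, a collagen galactosyltransferase, and P3H3, a prolyl 3-hydroxylase family member, fell (-2.48, -2.08 and -1.74). SERPINH1 is also a heat shock protein, and P4HB folds many proteins other than collagen.

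For propeptide removal and crosslinking, 13 of 16 genes were tested, of which 9 fell, 1 rose and 3 were not called. Over all genes tested 41.6% were called lower and 41.7% higher. The median of the list was -0.80. The lysyl oxidases LOXL2, LOXL1 and LOX, which crosslink fibrils, had log2 fold changes of -2.91, -2.66 and -1.41, and LOXL3 rose by 0.96. Of proteins that bind fibrils only 4 of 16 were tested. FN1, fibronectin, and MATN2, a matrilin, fell (-1.06 and -1.79), and 2 did not pass. The part that fell was near the 41.6% of all genes called lower. BGN, LUM, FMOD, KERA and FBLN1 had 0 counts in the 6 libraries.

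Collagen receptors had 2 genes higher, 4 lower and 2 not past among 8 tested of 12, near the 41.7% and 41.6% of all genes called higher and lower. ITGB1, the β chain of collagen-binding integrins, fell (-0.73), as did ITGA1, the α1 chain (-1.61), and CD44, a hyaluronan receptor that also binds collagen (-0.32), while DDR2, a receptor kinase for fibrillar collagen, rose from 172 ± 1.87 to 336 ± 6.66 CPM (SD, n = 3). ITGA10 rose from 17 to 51 counts. Among 4 tested of 7 collagen-degrading enzymes, MMP1, interstitial collagenase, rose by 1.86, MMP14 and CTSK, cathepsin K, fell (-0.79 and -1.32), and 1 did not pass. Of 17 tested transcription factors known to bind collagen promoters 11 fell, 5 rose and 1 was not called, against 41.6% of all genes lower and 41.7% higher; the median was -0.30. SMAD3, which carries TGF-beta signals, had a log2 fold change of -1.06, SOX9, an activator of COL2A1 and COL11A2, of -0.77, and ETS1 of -0.66. CEBPB rose by 0.67, SMAD4 by 0.37 and NFYC by 0.25. NFYC is a subunit of the CCAAT-binding factor, whose other subunits NFYA and NFYB fell (-0.85 and -0.94).

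The summed level of fibroblast and pericyte markers was 97.8 to 101 CPM in DMSO and 66.3 to 71.5 CPM after tt-DDE. Of these 8 markers 4 were tested and all 4 fell, where 41.6% of all genes were called lower, among them ACTA2, smooth muscle actin (log2 fold change -1.66), RGS5, a pericyte marker (-0.97), and FAP, fibroblast activation protein (-0.41). Of the markers too scarce to be tested, PDGFRA had 4 counts in DMSO and 14 after tt-DDE, DPT had 0 and 3, THY1 had 4 and 1, and TCF21 had 0. Endothelial markers summed to 1.4 to 1.56 CPM in DMSO and 2.02 to 2.19 CPM after tt-DDE, with 1 of 5 tested and not past. Of 5 leukocyte markers 2 were tested, of which 1 rose and 1 fell. The 5 summed to 127 to 131 CPM in DMSO and 99.5 to 116 CPM after tt-DDE, nearly all of it CD68 (log2 fold change -0.29). CD14 was at 2 and 84 counts and CD3E at 0. Photoreceptor and neuronal markers summed to at most 1.07 CPM, with 1 of 5 tested and higher (RBFOX3, 0 and 36 counts) and CRX at 0. CD14 and RBFOX3 had too few DMSO counts to pass the filter except through tt-DDE, so only a rise could be called. The labels name ARPE-19 cells alone as the source of every library, so these marker levels do not show that other cell types were present. The relation of these transcripts to the collagen changes was not tested. Of the line's own retinal pigment epithelium markers, 4 of 12 tested rose, 5 fell and 3 did not pass, close to the 41.7% and 41.6% over all genes. The keratins KRT8 and KRT18 fell from 748 to 214 CPM and from 365 to 145 CPM, and the membrane linker EZR from 754 to 340 CPM. MERTK, a receptor for engulfing photoreceptor debris, rose from 120 to 633 counts, TYRP1, a melanin-forming protein, from 54 to 115 counts, and BEST1, a chloride channel whose gene overlaps that of the ferritin chain FTH1 on the opposite strand, from 24 to 1021 counts. RPE65, which defines the mature tissue, had 0 counts.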

How the data were processed

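Polyadenylated RNA of 6 ARPE-19 libraries was sequenced, per the labels' protocols. The deposited table gives a whole-number read count and an FPKM per row and library, per the file headers; the build is GRCh38.p13, per the submitters' processing notes, and the sources used here name no aligner, counting program or strand setting. The FPKM deposited by the authors equalled count per gene length and column total for all 91254 values above 0 (relative tolerance 1e-06). Totals were 14156421 to 16061373 counts in DMSO and 15548067 to 17130543 in tt-DDE. No library was a repeat of another (chi-square per degree of freedom 1.74 to 3.57 within groups).

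Counts were summed by name (22312 rows to 19514 names) and tested in R 4.3.3 with edgeR 4.0.16 (filterByExpr, TMM, glmQLFit and glmQLFTest, two-sided) with Benjamini-Hochberg adjustment over 12531 genes at 0.05. Alternatives included DESeq2 1.42.0. SEs are the log2 fold change divided by the root of F. In counts simulated for these 12531 genes 66% of genes changed 1.25-fold and 94% of those changed 2-fold were recovered, and 9 unchanged genes were called. The simulation changed only 50 genes per fold size and gave all genes the same dispersion. In the data 83.3% of genes were called, so these rates check the code and do not carry over to the data. Intervals (exact, 95%) and floors cover counting error only, since PCR reads carry no molecular identifiers. Members and lists were chosen with earlier results of these data known. Counts per library are given for the 18 collagens past the threshold by at least 2-fold or with a mean of at least 50 CPM, and for some scarce genes. From each other list up to 3 called genes per direction with the smallest p were named; other genes, such as untested markers, were named after their values were seen.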

Additional observations from a re-analysis of the deposited data

How the results depend on the processing

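With 13 alternatives, 20 of the 22 collagens called kept direction and call wherever they were tested; COL5A1 and COL16A1 each kept direction and lost the call in 7. Counts of calls stayed within 1.5 times, at 7 to 10 higher and 13 lower. Medians of classes moved more. That of the fibrillar genes was 0.19 with a mean of at least 1 CPM required, which leaves 5 genes. That of basement membrane genes was -1.23 with library size alone and -1.16 without a filter. That of the other collagens was 0.32 without a filter (23 genes), -0.048 with library size alone, -0.27 with at least 1 CPM (11 genes), and -0.10 to 0.12 leaving out single libraries, negative without DMSO library 1 (-0.10) or tt-DDE library 3 (-0.0056); the cause was not tested beyond the change in genes. With the replicate block 9 were higher and 13 lower. Same-numbered libraries did not deviate together (r from -0.0119 to 0.0166), and not every library correlated best with its own number. No pairing by number was thus visible, which does not exclude one. Depth limits what can be said of the 20 collagens not tested.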
